A study of Mus musculus with 8 samples.

Results

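The 38 genes described here encode collagens, other matrix proteins, matrix cross-linking enzymes and products that mark hepatic stellate cells. They were listed by name and grouped by role as fibrillar collagens (5), basement membrane (7), collagens VI and XIV (4), proteoglycans, elastic fibre and glycoproteins (10), cross-linking enzymes (3), PDGF receptors (2), and stellate identity and contractile genes (7). Each matched 1 of the 55401 gene identifiers measured in each library, and all 38 were among the 13908 genes with enough counts to test.

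Hepatic stellate cells are the pericytes of the liver sinusoid. In the healthy liver they store vitamin A, and after injury or resection they can turn into contractile, matrix-producing cells under PDGF and TGF beta signalling. The matrix they lay down includes fibrillar collagens, which bear tension, and a thin basement membrane of collagen IV, laminin and nidogen. Portal fibroblasts, vascular smooth muscle and sinusoidal endothelium make some of the same proteins, and hepatocytes secrete fibronectin into plasma.

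The study took liver from C57BL/6J mice on day 2 after partial hepatectomy, the surgical removal of part of the liver, to ask what TBL1XR1 does in liver regeneration. Each group had received an adeno-associated virus aimed at hepatocytes 4 weeks before surgery, with a control hairpin RNA (shNC, 4 libraries) or a hairpin against Tbl1xr1 (shTbl1xr1, 4 libraries). No unoperated or uninfected liver is compared here, so every level below is that of a regenerating, infected liver. The knockdown was directed at hepatocytes, and which cells made each of these RNAs was not measured. Whether replicates are separate mice is not stated in the labels, so p-values measure the spread between these libraries, which may be technical. Since RNA came from whole liver, fewer cells of a type and less RNA per cell cannot be told apart.

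The targeted gene was lower in each shTbl1xr1 library than in any shNC library, and lower in shTbl1xr1 1 and 2 than in 3 and 4. Tbl1xr1 stood at 27.2, 35.9, 33.7 and 34.6 CPM (library-scaled counts, TMM-normalised) in shNC 1 to 4. Its level was 2.38, 2.07, 9.24 and 15.9 CPM in shTbl1xr1 1 to 4. Totals ran from 25811763 to 27537235 counts in shNC, and were 10895508, 10728583, 26976205 and 36720879 counts in shTbl1xr1 1 to 4. The mitochondrial share of counts was 4.52% to 7.34% except in shTbl1xr1 1 and 2, where it was 11.3% and 14.8%. The libraries shTbl1xr1 1 and 2 are called the shallow pair below and shTbl1xr1 3 and 4 the deeper pair, and each pair is described apart from the other.

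Over all 8 libraries none of the 38 genes passed the test, in an average over pairs whose median fold changes had opposite signs. In the shallow pair 18 genes fell, among them Col1a2, Col3a1, Col4a1, Dcn, Reln and Rgs5, at 22.9% to 63.8% of the shNC mean. In the deeper pair none passed the test, and 26 of the 38 had a positive log2 fold change. That sign rested on shTbl1xr1 3: the members' median log2 level relative to the shNC mean was 0.52 there and -0.17 in shTbl1xr1 4. The pairs, which carry the same label, differed from each other in 21 genes, all lower in the shallow pair.

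**Figure D1:**
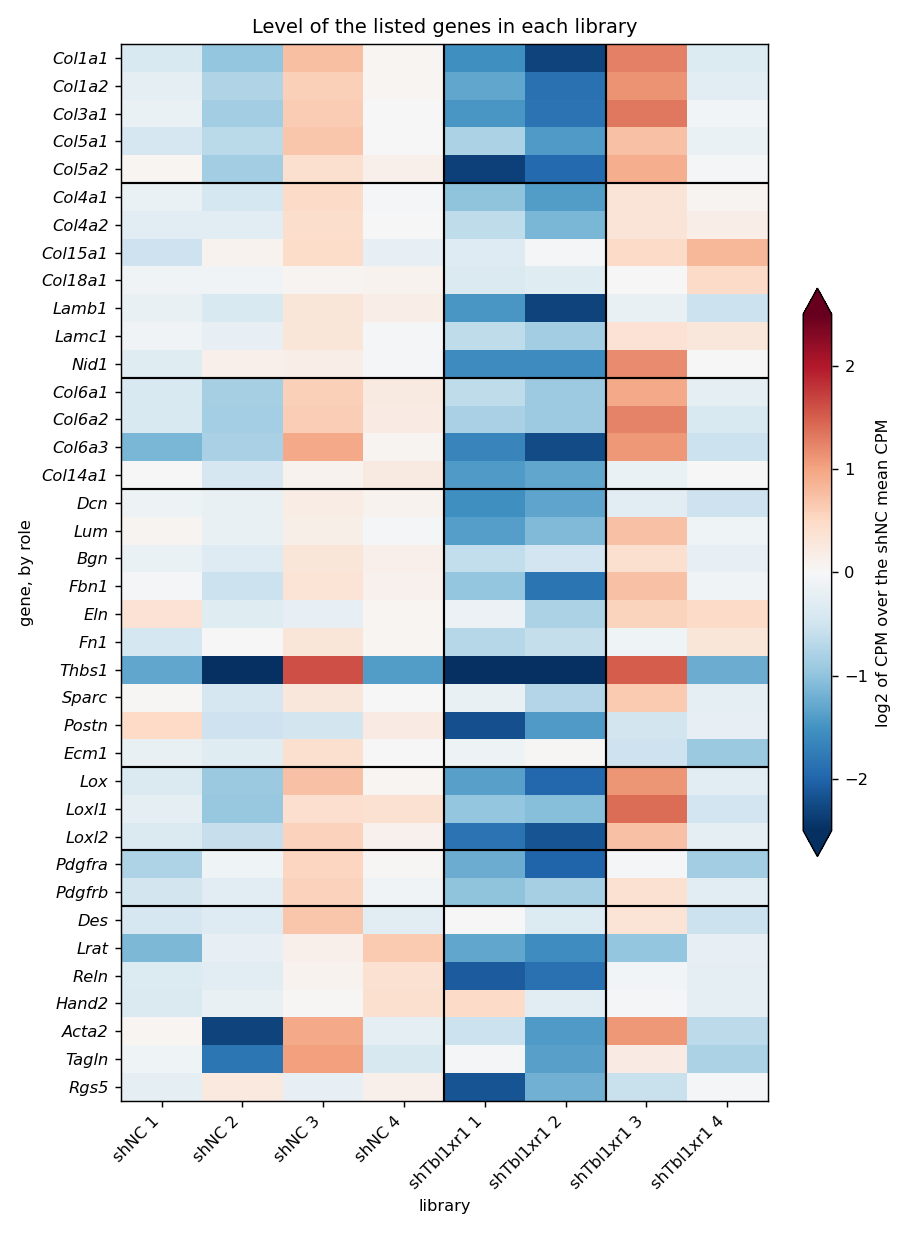
Log2 level of each of the 38 genes (rows, grouped by role) in each library (columns) relative to the gene's shNC mean, as a colour scale that saturates at its ends. The shallow pair is below the shNC mean in most rows, and replicate 3 of either group is above it in most rows, including all 5 fibrillar collagens.

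In the designed comparison, shTbl1xr1 against shNC with 4 libraries each, 0 of 38 genes were lower and 0 higher by edgeR's quasi-likelihood test at an adjusted p under 0.05, adjusted over all genes tested. The background was 0.00719% of genes called lower and 0.0431% called higher. DESeq2 and limma-voom also called 0 members. An edgeR p under 0.05 before adjustment was found for 1 member (Dcn, lower) and for 1615 of all 13908 genes. The median log2 fold change over the members was -0.17, with 7 positive and 31 negative, against 0.01 over all genes. That median moved to -0.72 without shTbl1xr1 3, to 0.06 without shTbl1xr1 2 and to 0.01 without shNC 3. Dcn was the only member whose groups did not overlap, with every shTbl1xr1 library below every shNC library, where 3.37% of all genes were so placed. No member had every shTbl1xr1 library above every shNC library, against 3.88% of all genes.

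In the shallow pair against shNC, 18 of 38 members were lower by edgeR (background 19.1% of genes) and 0 were higher (background 20.4%). No member had an unadjusted p under 0.05 in the higher direction, where 3339 of all 13908 genes did. DESeq2 and limma-voom called 0 members higher. With an offset for the effective length per library, described below, edgeR called 16 members lower and 2 higher (Col15a1 and Lamc1). DESeq2 called 23 members lower, the 18 and also Col1a1, Col5a1, Col6a3, Pdgfrb and Lrat, and limma-voom 20, the 18 and also Bgn and Col18a1. Over all genes, both directions together, edgeR called 5484, edgeR with the offset 5394, DESeq2 5579 and limma-voom 5986. The median log2 fold change was -1.21 over the members and -0.08 over all genes, and only Hand2 had a positive value, 0.15. Both shallow libraries lay below all 4 shNC libraries for 28 members, where 32.9% of all genes did. The count rests on having both libraries: fewer members, and fewer of all genes, were called with either left out. The members' median was then -1.34 without shTbl1xr1 1 and -1.01 without shTbl1xr1 2, against -0.10 and -0.08 over all genes.

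In the deeper pair against the same shNC libraries, which both comparisons share, 0 of 38 members were lower (background 0.0144% of genes) and 0 higher (background 0.115%), also by DESeq2 and limma-voom. At an edgeR p under 0.05 before adjustment there were 4 of the 38 members, 2 in each direction, and 1695 of all 13908 genes. The median log2 fold change was 0.30 over the members and 0.00 over all genes, and it turned to -0.24 without shTbl1xr1 3. Without shTbl1xr1 4 the single remaining library gave 1 call, Nid1, higher with a log2 fold change of 1.17 and an edgeR adjusted p of 0.0234. Both libraries lay below all shNC libraries for 2 members, Dcn and Ecm1 (background 10.4%), and above them for 2, Col15a1 and Eln (background 10.6%).

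Tested directly against each other, the shallow pair was lower than the deeper pair in 21 of 38 members by edgeR (background 19.0%) and higher in 0 (background 18.1%), while DESeq2 called 27 lower and Ecm1, encoding a secreted matrix glycoprotein, higher. The 6 further genes it called lower were Col5a1, Col6a1, Col6a2, Col6a3, Loxl1 and Pdgfrb. Over all genes, both directions together, edgeR called 5155 and DESeq2 5289. The median difference was -1.34 over the members and -0.12 over all genes. It was -1.43 without shTbl1xr1 1 and -1.14 without shTbl1xr1 2, against -0.13 over all genes in both. Fewer members, and fewer of all genes, were then called. Without shNC 3 the count was 27 lower and 1 higher, with 5110 of all genes called. With the replicate number as a block, though the labels do not say what a number marks, 6 members were lower and 1 higher. The fit with this block called 1036 of all genes, both directions together. Since the pairs also differ in depth, mitochondrial share and remaining Tbl1xr1 level, these and any other difference between them cannot be told apart.

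**Figure D2:**
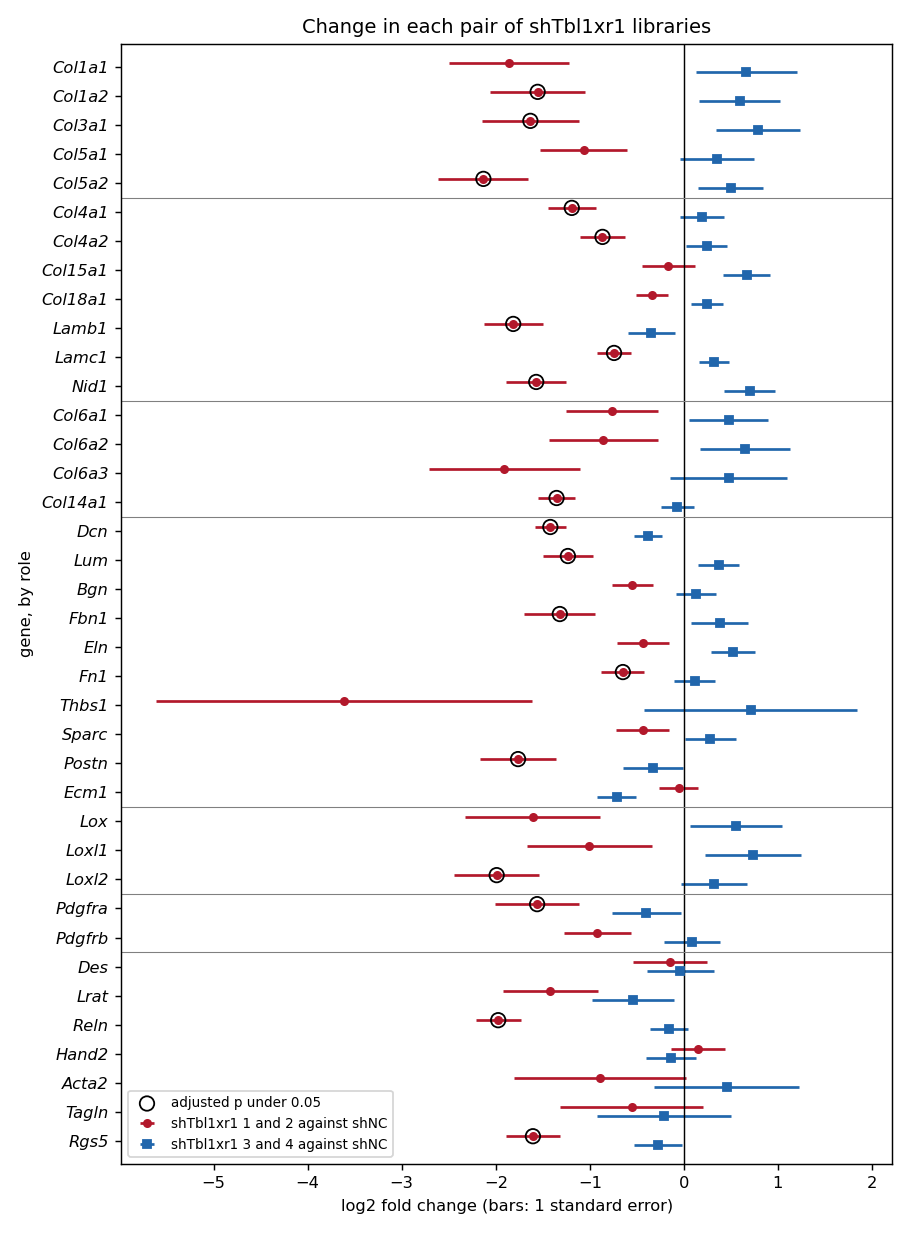
Log2 fold change against shNC (horizontal axis) of each of the 38 genes (rows, by role) in the shallow pair and in the deeper pair, with bars of 1 standard error from edgeR and rings around points with an adjusted p under 0.05. The 18 rings are all in the shallow pair, where 37 of 38 points lie below 0, and no point of the deeper pair has one.

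Fold changes in the shallow pair also moved with transcript length. The members' median effective length, the span from which fragments could be sequenced, was 4.33 kb (1.09 to 9.48 kb), against 2.19 kb over all genes tested. Over all genes the median log2 fold change of the shallow pair was 0.79 up to 1 kb, 0.23 from 1 to 2 kb, -0.26 from 2 to 4 kb, -0.56 from 4 to 6 kb and -0.79 above 6 kb. Members had lower medians in each class they filled: -0.55 (5 genes, 1 to 2 kb), -0.86 (13 genes, 2 to 4 kb), -1.57 (16 genes, 4 to 6 kb) and -1.09 (4 genes, above 6 kb). Of the members, 5 of 5, 10 of 13, 15 of 16 and 3 of 4 lay below their class's median over all genes. Across genes, which are not replicates, Pearson's r between fold change and log2 length was -0.48 over the 38 members and -0.37 over the 13908 genes, all points sharing the same libraries.

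With each library's smooth trend on length removed, a setting chosen after seeing the data, 7 members stayed lower in the shallow pair (background 10.4%): Col14a1, Dcn, Lamb1, Lum, Postn, Reln and Rgs5. None was called higher (background 14.2%). The members' median was then -0.84 and that of all genes 0.00. Between the pairs 4 members stayed lower with the trend removed (background 7.06%): Dcn, Lum, Nid1 and Reln. Results with this correction are given below for some roles and genes, and a member not named in these lists was not called with it.

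**Figure D3:**
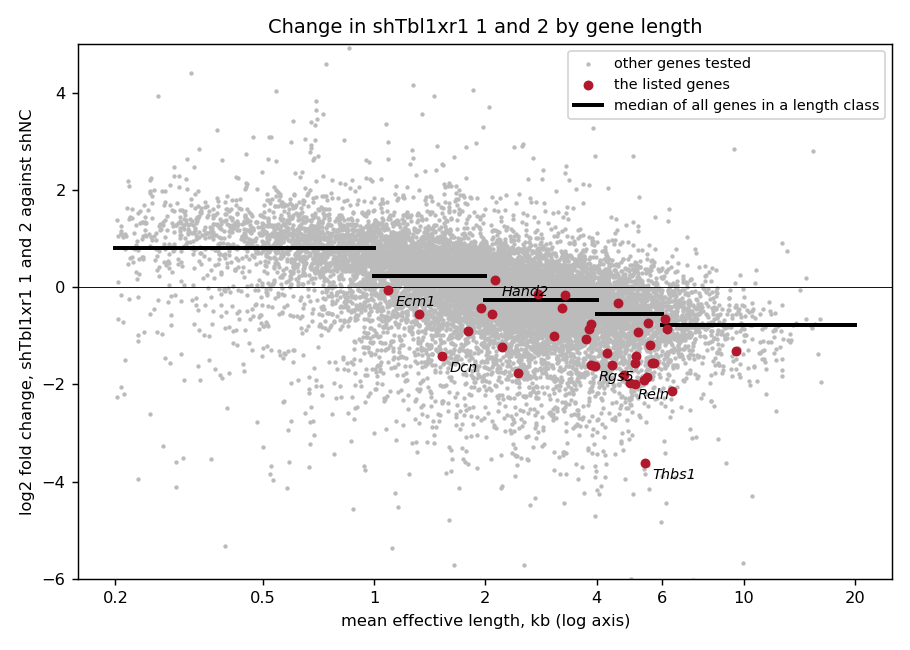
Log2 fold change of the shallow pair against shNC (vertical axis) by effective length in kb (horizontal axis, log scale), for all genes tested (grey), the median of all genes in each length class (bars) and the 38 members (red points). The class medians fall from 0.79 to -0.79 with length, and most members lie below them; genes beyond the axis limits are not drawn.

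The fibrillar collagens had the widest spread of group medians between libraries: the median log2 level relative to the shNC mean ran from -1.78 in shTbl1xr1 2 to 1.21 in shTbl1xr1 3. Col1a1 (ENSMUSG00000001506.10; chromosome 11, 94936224 to 94953042, plus strand, GRCm38), the major chain of collagen I, stood at 36.3, 24.2, 79.1 and 49.0 CPM in shNC 1 to 4. Its values in shTbl1xr1 1 to 4 were 16.4, 9.53, 112 and 37.3 CPM, so shTbl1xr1 3 was above every other library and the shallow pair below every other one. Its log2 fold change was -1.86 (SE 0.64, edgeR adjusted p = 0.0508) in the shallow pair and 0.67 (SE 0.54, adjusted p = 0.678) in the deeper pair, and the pairs differed by -2.52 (SE 0.70, adjusted p = 0.0266). Col1a2, its partner chain, had 32.7, 22.8, 58.2 and 39.6 CPM in shNC and 15.5, 10.5, 83.6 and 32.1 CPM in shTbl1xr1, and fell in the shallow pair (-1.55, SE 0.51, edgeR adjusted p = 0.0425).

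Col3a1, the collagen III chain laid down early in wound matrix, was the highest of the 5 per unit length in shNC (29.4 ± 11.4 TPM, a length-scaled level, SD, n = 4). Its CPM values were 76.9, 47.1, 134 and 87.2 in shNC and 31.5, 24.0, 216 and 82.5 in shTbl1xr1, again with replicate 3 highest in both groups. It fell in the shallow pair (-1.63, SE 0.51, edgeR adjusted p = 0.0370). Col5a2, a collagen V chain that helps start fibrils, lies beside Col3a1 on chromosome 1 on the other strand (45374321 to 45503282, against 45311538 to 45349706 for Col3a1, GRCm38). It had 10.5, 5.52, 13.4 and 11.1 CPM in shNC and 2.00, 2.62, 18.9 and 9.72 CPM in shTbl1xr1, resting on 16 and 19 counts in the shallow pair, and had the lowest percentage of the shNC mean there among the 18 called genes, 22.9% (-2.13, SE 0.48, edgeR adjusted p = 0.00845). Col5a1, the other collagen V chain, had 11.7, 9.80, 25.2 and 15.7 CPM in shNC and 9.01, 5.80, 26.0 and 13.9 CPM in shTbl1xr1 and was called in no comparison by edgeR.

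In the shallow pair 3 of the 5 fibrillar collagen genes fell (background 19.1% of genes), and 0 with the length trend removed (background 10.4%). Between the pairs 4 of 5 differed, all but Col5a1 (background 19.0% lower), and none did with the length trend removed (background 7.06%). The summed level of the 5 genes was 168, 109, 310 and 203 CPM in shNC 1 to 4 and 74.5, 52.5, 456 and 175 CPM in shTbl1xr1 1 to 4. Replicate 3 was the highest library of shNC for 30 of the 38 members and the highest library of shTbl1xr1 for 29, against 30.0% and 23.2% of all genes tested. In the same libraries the summed level of 6 cholangiocyte markers was 118 CPM in shNC 3 and 236 CPM in shTbl1xr1 3, against 31.7 to 59.8 CPM in the other 6. Spp1 made up 99.0 and 202 CPM of these sums, and the other 5 markers summed to 18.9 and 33.8 CPM in those libraries and 8.33 to 12.8 CPM in the other 6. For 6 portal fibroblast markers it was 17.1 and 20.7 CPM in those libraries, 14.6 CPM in shNC 4 and 5.23 to 9.54 CPM in the other 5. Fbln2 made up 7.10 and 7.31 CPM, and Msln 4.12 and 5.28 CPM, of the sums in replicate 3. The 5 mural and smooth muscle markers summed to 6.67 CPM in shNC 3, the highest of shNC. In shTbl1xr1 3 they summed to 4.70 CPM, below 6.22 CPM in shTbl1xr1 4. The part of such cells in the collagen values was not tested.

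Among the basement membrane genes, the collagen IV chains, laminin chains and nidogen fell in the shallow pair, and the multiplexin collagens Col15a1 and Col18a1 did not pass the test there. Col4a1, whose product forms the collagen IV network with that of Col4a2, had 81.1, 67.4, 127 and 88.0 CPM in shNC and 45.1, 34.5, 114 and 94.9 CPM in shTbl1xr1. Col4a2 had 46.1, 46.3, 76.1 and 56.6 CPM in shNC and 36.3, 25.4, 70.0 and 63.0 CPM in shTbl1xr1. For both genes the shallow libraries were the lowest of the 8, and the deeper ones lay within the shNC range. The log2 fold changes in the shallow pair were -1.19 for Col4a1 (SE 0.26, edgeR adjusted p = 0.00629) and -0.87 for Col4a2 (SE 0.24, edgeR adjusted p = 0.0186), and with the length trend removed neither passed (-0.56 and -0.18).

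These genes lie head to head on chromosome 8, and their promoter windows are shown because the genes share them. The RefSeq windows (GRCm38.p6) run from 250 bases before to 50 after each start, at chr8:11312777-11313076 on the minus strand for Col4a1 and chr8:11312555-11312854 on the plus strand for Col4a2. Capitals mark the 78 bases the windows have in common, printed on opposite strands (11312777 to 11312854).
Col4a1: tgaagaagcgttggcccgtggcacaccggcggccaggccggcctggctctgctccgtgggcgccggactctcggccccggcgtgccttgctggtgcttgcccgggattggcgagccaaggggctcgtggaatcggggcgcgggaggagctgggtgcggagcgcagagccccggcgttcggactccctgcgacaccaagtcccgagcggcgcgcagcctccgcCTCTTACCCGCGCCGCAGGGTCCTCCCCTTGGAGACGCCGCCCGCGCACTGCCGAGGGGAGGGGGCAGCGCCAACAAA
Col4a2: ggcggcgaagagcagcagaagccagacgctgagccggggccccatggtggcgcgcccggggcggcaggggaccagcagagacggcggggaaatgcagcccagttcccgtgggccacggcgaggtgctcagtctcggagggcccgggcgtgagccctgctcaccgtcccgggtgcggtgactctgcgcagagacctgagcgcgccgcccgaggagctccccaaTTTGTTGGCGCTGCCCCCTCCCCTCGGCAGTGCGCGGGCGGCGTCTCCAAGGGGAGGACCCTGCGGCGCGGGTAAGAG
The annotated genes overlap there (GENCODE release 21), and the strand setting of the counting is not given in the sources used here, so reads in the overlap cannot be assigned to either gene with certainty. The same holds for Col18a1 with Slc19a1, Loxl2 with Gm27177, Hand2 with Hand2os1, and Tagln with Pcsk7 and Gm48529, which overlap on opposite strands and have counts. The windows were 74.0% and 73.7% G or C, against a median of 52.7% over all 32851 windows in the table. Both hold CCAAT, a motif named for its letters, and GGGCGG, the GC box, on one strand or the other.

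Lamb1, encoding the laminin beta 1 chain, had the smallest adjusted p of the basement membrane genes in the shallow pair. It stood at 9.08, 7.97, 12.7 and 11.6 CPM in shNC and at 3.76, 2.07, 9.15 and 7.14 CPM in shTbl1xr1, with 30 and 15 counts in the shallow pair, which lay below all other libraries. The log2 fold change there was -1.81 (SE 0.31, edgeR adjusted p = 0.00220) and -1.26 with the length trend removed (adjusted p = 0.0214). Its RefSeq promoter window is shown because Lamb1 is 1 of the 5 genes called lower in the shallow pair under every alternative run. It covers chr12:31265043-31265342 on the plus strand (GRCm38.p6), and capitals mark GGGCGG, which occurs here as its complement, 2 times.
Lamb1: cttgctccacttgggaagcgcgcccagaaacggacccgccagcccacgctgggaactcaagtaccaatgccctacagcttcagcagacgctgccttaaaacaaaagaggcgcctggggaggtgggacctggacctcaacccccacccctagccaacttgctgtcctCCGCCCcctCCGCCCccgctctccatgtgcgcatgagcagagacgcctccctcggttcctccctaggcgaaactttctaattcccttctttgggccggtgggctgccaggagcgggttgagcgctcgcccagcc

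Lamc1, the laminin gamma 1 chain, had 23.8, 21.8, 31.1 and 24.4 CPM in shNC and 16.4, 13.8, 32.4 and 30.6 CPM in shTbl1xr1. It fell in the shallow pair (-0.74, SE 0.18, edgeR adjusted p = 0.00957), but the direction turned to 0.70 (adjusted p = 0.0431) when the authors' effective lengths per library were used as an offset. Nid1, encoding nidogen 1, which links laminin to collagen IV, had 37.3, 50.3, 51.3 and 44.4 CPM in shNC and 15.4, 15.5, 103 and 45.7 CPM in shTbl1xr1. The shallow libraries were at 33.7% of the shNC mean (-1.57, SE 0.32, edgeR adjusted p = 0.00525), while shTbl1xr1 3 was above all other libraries. The difference between the pairs, -2.27 (SE 0.35, edgeR adjusted p = 0.00211), also passed with the length trend removed (-1.56, adjusted p = 0.0363), and without shTbl1xr1 3 the deeper pair's value for Nid1 was -0.01.

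Col18a1, the source of the fragment endostatin, was the highest collagen gene here per unit length, at 154 ± 19.5 TPM in shNC (SD, n = 4). It had 507, 507, 570 and 577 CPM in shNC and 419, 437, 534 and 748 CPM in shTbl1xr1, a narrow shNC range. It passed only between the pairs (-0.58, SE 0.19, edgeR adjusted p = 0.0411), and that direction turned with the length trend removed (0.056). Col15a1, a related multiplexin of vascular basement membranes, had 5.85, 8.98, 11.6 and 7.25 CPM in shNC and 6.76, 8.29, 11.7 and 15.0 CPM in shTbl1xr1. Both deeper libraries lay above shNC, shTbl1xr1 3 by a small margin, with a log2 fold change of 0.67 (SE 0.25, edgeR adjusted p = 0.317). In the shallow pair Col15a1 had -0.16 (SE 0.28), which turned to 0.94 (edgeR adjusted p = 0.00545) with the effective length offset. In all, 5 of 7 basement membrane genes fell in the shallow pair (background 19.1% of genes), and 6 of 7 were lower there than in the deeper pair (background 19.0%). With the length trend removed the counts were 1 (Lamb1, background 10.4%) and 1 (Nid1, background 7.06%).

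The other basement membrane genes listed beside the members moved alike in the shallow pair. Of 11 tested, 6 were lower (Agrn, Hspg2, Lama4, Lama5, Lamb2 and Nid2) and 0 higher, with a median of -1.16. The background was 19.1% of genes lower and 20.4% higher. With the length trend removed 1 of the 11 was lower, Lamb2 (background 10.4%), and the median was -0.53. Hspg2, encoding the heparan sulfate proteoglycan perlecan, had 22.7, 26.0, 41.2 and 37.97 CPM in shNC and 16.9, 14.8, 39.4 and 36.7 CPM in shTbl1xr1. Of 7 other collagens tested 3 were lower (Col13a1, Col16a1 and Col5a3) and 0 higher, against the same background. With the length trend removed only Col13a1 was called. In the deeper pair and over all 8 libraries 0 genes of either list were called by edgeR, and the smallest p over all 8 was that of Lamb3 (-0.87, SE 0.34, adjusted p = 0.408) and Col13a1 (-0.77, SE 0.32, adjusted p = 0.414).

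Collagen VI forms beaded filaments around cells, and its 3 chains, Col6a1, Col6a2 and Col6a3, did not pass the edgeR test in any comparison. Col6a1 had 9.36, 6.86, 18.4 and 14.4 CPM in shNC and 7.89, 6.49, 23.8 and 10.4 CPM in shTbl1xr1. Col6a2, its neighbour on chromosome 10, had 6.57, 4.74, 13.0 and 9.91 CPM in shNC and 4.88, 4.56, 20.4 and 6.59 CPM in shTbl1xr1. Col6a3 had 6.78, 8.52, 28.8 and 15.8 CPM in shNC and 4.76, 3.18, 31.6 and 10.3 CPM in shTbl1xr1. For all 3 chains replicate 3 was the highest library of each group, and the spread within shNC left log2 fold changes of -0.77 (SE 0.49), -0.86 (SE 0.58) and -1.91 (SE 0.80) in the shallow pair.

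Col14a1, a fibril-associated collagen, differed from the collagen VI chains in its small spread within shNC. It had 31.6, 23.4, 33.4 and 36.6 CPM in shNC and 11.8, 12.7, 28.0 and 31.5 CPM in shTbl1xr1, the shallow pair apart and the deeper pair inside the shNC range. It fell in the shallow pair (-1.35, SE 0.20, edgeR adjusted p = 0.00109), also with the length trend removed (-0.86, adjusted p = 0.0130), and had -0.07 (SE 0.18, adjusted p = 0.909) in the deeper pair. It was 1 of the 5 genes called in the shallow pair under every alternative.

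Decorin and lumican are small leucine-rich proteoglycans that coat collagen fibrils, and their genes lie close together on chromosome 10 (Dcn 97479609 to 97518143, Lum 97565128 to 97572703, both plus strand, GRCm38). Dcn (ENSMUSG00000019929.16) had 102, 97.2, 125 and 118 CPM in shNC and 38.3, 44.3, 92.2 and 77.5 CPM in shTbl1xr1, so all 4 shTbl1xr1 libraries were below all shNC libraries. The shNC mean was 111 ± 13.3 CPM and that of shTbl1xr1 63.1 ± 26.0 CPM (SD, 4 libraries each), and the log2 fold change over all 8 libraries was -0.80 (SE 0.28, edgeR adjusted p = 0.382). By pair it was -1.42 (SE 0.16, edgeR adjusted p = 0.000435) in the shallow libraries and -0.38 (SE 0.15, adjusted p = 0.349) in the deeper ones.

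Dcn is a short transcript among the members (1.53 kb), and with the length trend removed its fold change in the shallow pair was -1.61 (edgeR adjusted p = 0.00171). The pairs themselves differed by -1.04 (SE 0.18, edgeR adjusted p = 0.00270). Lum had 15.0, 12.5, 15.8 and 13.8 CPM in shNC and 5.51, 6.63, 23.7 and 13.2 CPM in shTbl1xr1, with shTbl1xr1 3 the highest of the 8 libraries. It fell in the shallow pair (-1.23, SE 0.26, edgeR adjusted p = 0.00585; -1.14 with the length trend removed). Bgn, encoding biglycan, a close relative of decorin, had 80.0, 72.0, 111 and 98.4 CPM in shNC and 59.0, 64.8, 119 and 78.0 CPM in shTbl1xr1 and was called in no comparison by edgeR.

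Of the elastic fibre genes, Fbn1 encodes the microfibril protein fibrillin 1 and is the longest member (9.48 kb). It had 7.53, 5.39, 9.89 and 8.45 CPM in shNC and 4.01, 2.21, 13.0 and 7.39 CPM in shTbl1xr1, and fell in the shallow pair (-1.32, SE 0.38, edgeR adjusted p = 0.0216), though not with the length trend removed (-0.46, adjusted p = 0.480). Eln, encoding elastin, had 6.82, 4.28, 4.61 and 5.45 CPM in shNC and 4.76, 3.04, 7.83 and 7.34 CPM in shTbl1xr1. Both deeper libraries exceeded every shNC library, with a log2 fold change of 0.52 (SE 0.23, edgeR adjusted p = 0.410), and the pairs differed by -0.95 (SE 0.30, edgeR adjusted p = 0.0344). With the length trend removed that difference was -0.57 (edgeR adjusted p = 0.237).

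Fn1, encoding fibronectin, which hepatocytes also secrete, was the highest member per unit length at 336 ± 56.2 TPM in shNC (SD, n = 4), followed by Col18a1 and by Dcn (93.7 ± 16.6 TPM) and Sparc (92.9 ± 21.4 TPM), which did not differ beyond their spread. Fn1 had 1285, 1738, 2147 and 1796 CPM in shNC and 1062, 1159.9, 1619.7 and 2151 CPM in shTbl1xr1. The shallow pair's fold change of -0.65 (SE 0.23, edgeR adjusted p = 0.0471) just passed the threshold, and its direction turned with the length trend removed (0.025) and with the effective length offset (0.069).

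Periostin, encoded by Postn, is a matricellular protein of remodelling tissue. Postn had 8.93, 4.41, 4.58 and 7.25 CPM in shNC and 1.38, 2.35, 4.57 and 5.43 CPM in shTbl1xr1, with 11 and 17 counts in the shallow pair. It fell there (-1.76, SE 0.41, edgeR adjusted p = 0.00840; -1.60 with the length trend removed), and the deeper libraries lay inside the shNC range. Sparc, encoding a collagen-binding glycoprotein, had 143, 106, 172 and 143 CPM in shNC and 123, 84.8, 223 and 119 CPM in shTbl1xr1 and was called in no comparison by edgeR.

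Thbs1 and Ecm1 had patterns of their own. Thbs1, encoding thrombospondin 1, an activator of latent TGF beta, had 2.30, 0.980, 17.3 and 2.15 CPM in shNC and 0.501, 0.414, 16.3 and 2.40 CPM in shTbl1xr1. Replicate 3 stood far above the others in both groups, and the shallow pair had 4 and 3 counts, so its fold change of -3.61 carried an SE of 2.00. Ecm1, the shortest member (1.09 kb) and with Hand2 1 of 2 members whose fitted level was lower in the deeper than in the shallow pair, had 49.2, 44.9, 73.2 and 55.5 CPM in shNC, 50.9 and 56.5 CPM in the shallow pair and 38.7 and 29.3 CPM in the deeper pair. Its fold change in the deeper pair was -0.71 (SE 0.21, edgeR adjusted p = 0.218), and the difference between the pairs, 0.66 (SE 0.24, adjusted p = 0.0538), missed the threshold. Of the 10 genes in this group 5 fell in the shallow pair (Dcn, Lum, Fbn1, Fn1 and Postn), against 19.1% of all genes. With the length trend removed 3 did (Dcn, Lum and Postn), against 10.4%.

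**Figure D4:**
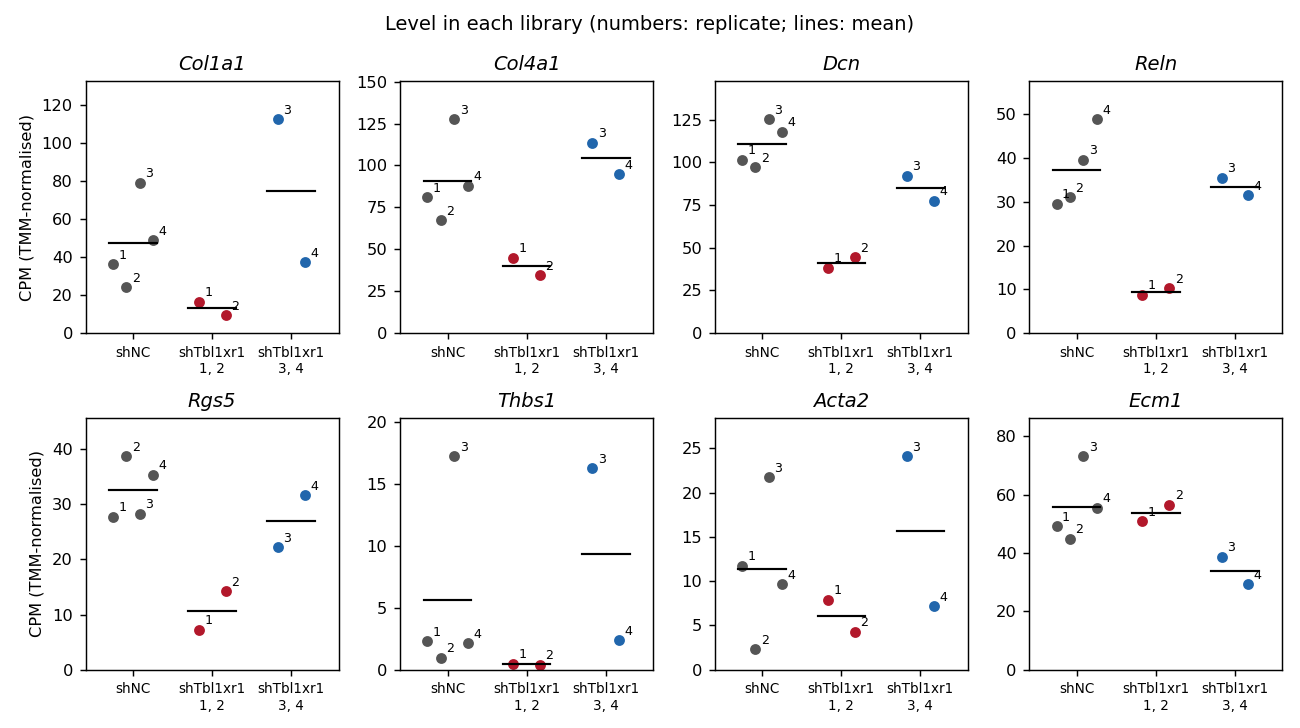
TMM-normalised CPM of 8 members in each library (points, numbered by replicate), with shNC, the shallow pair and the deeper pair in columns and horizontal lines at the means. In the panels of Col1a1, Col4a1, Dcn, Reln, Rgs5 and Thbs1 the shallow pair lies below all other libraries. Those of Col1a1, Col4a1, Dcn, Thbs1 and Acta2 show replicate 3 highest in both groups.

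The lysyl oxidases cross-link collagen and elastin outside the cell. Loxl2 had 11.5, 9.96, 22.0 and 15.9 CPM in shNC and 4.13, 3.31, 24.6 and 12.6 CPM in shTbl1xr1, and fell in the shallow pair to 25.1% of shNC (-1.99, SE 0.45, edgeR adjusted p = 0.00917). With the length trend removed the value was -1.40 (edgeR adjusted p = 0.0625). Lox was the lowest member per unit length (0.470 ± 0.251 TPM in shNC, SD, n = 4), at 1.26, 0.849, 2.66 and 1.67 CPM in shNC and 0.626, 0.414, 3.45 and 1.31 CPM in shTbl1xr1, with 5 and 3 counts in the shallow pair, and passed only between the pairs (-2.16, SE 0.76, edgeR adjusted p = 0.0493). With the length trend removed that difference was -1.60 (edgeR adjusted p = 0.191). Loxl1 had 2.66, 1.63, 4.25 and 4.12 CPM in shNC and 1.63, 1.52, 8.34 and 2.26 CPM in shTbl1xr1 and was called in no comparison by edgeR. Thus 1 of 3 fell in the shallow pair (background 19.1% of genes), and none did with the length trend removed (background 10.4%). Replicate 3 was highest in both groups for all 3.

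Of 15 collagen-processing enzymes tested beside the members, 5 were lower in the shallow pair (Adamts14, Adamts2, P4ha1, Pcolce2 and Plod2) and 1 higher (P4ha2). The background was 19.1% of genes lower and 20.4% higher. P4ha1, a prolyl hydroxylase subunit that lets the collagen helix hold, had 18.4, 13.6, 24.1 and 21.7 CPM in shNC and 7.51, 7.32, 17.8 and 10.5 CPM in shTbl1xr1 (-1.39, SE 0.30, edgeR adjusted p = 0.00643 in the shallow pair). P4ha2, the alternative subunit, had 5.85, 4.80, 8.26 and 5.11 CPM in shNC and 8.76, 12.4, 8.47 and 6.79 CPM in shTbl1xr1 (0.82, SE 0.26, edgeR adjusted p = 0.0327). With the length trend removed P4ha2 did not pass (0.78, edgeR adjusted p = 0.0585). Of the 15 enzymes 2 were then lower (P4ha1 and Pcolce2, background 10.4%) and 2 higher (Plod1 and Plod3, background 14.2%). Over all 8 libraries and in the deeper pair edgeR called 0 of the 15, and the smallest p over all 8 was that of Colgalt2 (1.49, SE 0.49, adjusted p = 0.350).

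The PDGF receptors transmit the main growth signal of stellate cells. Pdgfra had 4.88, 7.71, 12.05 and 8.48 CPM in shNC and 3.50, 2.07, 8.08 and 4.51 CPM in shTbl1xr1, with 28 and 15 counts in the shallow pair, and fell there (-1.56, SE 0.45, edgeR adjusted p = 0.0227; -0.91 and adjusted p = 0.166 with the length trend removed). Pdgfrb had 6.39, 7.35, 13.2 and 8.34 CPM in shNC and 4.38, 4.97, 11.6 and 7.29 CPM in shTbl1xr1, with -0.92 (SE 0.35, edgeR adjusted p = 0.0638) in the shallow pair and 0.09 (SE 0.30) in the deeper pair. Neither receptor passed the test between the pairs (edgeR adjusted p = 0.0899 and 0.0662).

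Of 22 genes of the TGF beta and PDGF pathway tested beside the members, 3 were lower in the shallow pair (Ltbp1, Ltbp4 and Skil) and 0 higher. Both were smaller shares than the background, 19.1% of genes lower and 20.4% higher. With the length trend removed 1 was lower, Ltbp1 (background 10.4%). Ltbp1, which holds latent TGF beta in the matrix, had 2.94, 2.38, 5.58 and 4.02 CPM in shNC and 0.626, 0.8286, 4.44 and 2.93 CPM in shTbl1xr1 (-2.36, SE 0.50, edgeR adjusted p = 0.00589 in the shallow pair). Tgfb1 itself had 14.6, 11.7, 14.2 and 12.4 CPM in shNC and 13.3, 9.11, 19.5 and 12.8 CPM in shTbl1xr1, with -0.24 (SE 0.23) and 0.29 (SE 0.21) in the pairs. Over all 8 libraries 0 were called, and Ltbp4 had the smallest p (-0.67, SE 0.24, edgeR adjusted p = 0.388). Among 19 matrix receptors, 10 were lower in the shallow pair (background 19.1%) and 2 higher, Itgb5 and Sdc2 (background 20.4%). With the length trend removed 3 were lower (Ddr2, Itga6 and Itga9, background 10.4%) and 3 higher (Itga5, Itgb5 and Sdc2, background 14.2%). Itgb5 also had the smallest p over all 8 (0.33, SE 0.13, edgeR adjusted p = 0.408), where 0 were called.

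Among the stellate identity and contractile genes, Reln and Rgs5 fell in the shallow pair and the other 5 were called in no comparison by edgeR. Reln (ENSMUSG00000042453.14; chromosome 5, 21884454 to 22344702, minus strand, GRCm38), encoding the secreted glycoprotein reelin, which in liver marks stellate cells, had 29.6, 31.1, 39.6 and 48.8 CPM in shNC. In shTbl1xr1 it had 8.76, 10.2, 35.5 and 31.5 CPM, the shallow pair below all other libraries and the deeper pair inside the shNC range. The shallow pair was at 25.5% of the shNC mean (-1.97, SE 0.24, edgeR adjusted p = 0.000514; -1.40 and adjusted p = 0.00433 with the length trend removed). The pairs differed by -1.82 (SE 0.26, edgeR adjusted p = 0.00136), the smallest p of any member in that comparison, and by -1.15 (adjusted p = 0.0188) with the length trend removed.

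Rgs5, a brake on G protein signalling that marks pericytes, had 27.8, 38.7, 28.3 and 35.4 CPM in shNC and 7.26, 14.2, 22.3 and 31.6 CPM in shTbl1xr1. It fell in the shallow pair (-1.61, SE 0.29, edgeR adjusted p = 0.00293; -1.17 and adjusted p = 0.0155 with the length trend removed). For this gene replicate 3 was not the highest library of either group. Like Lamb1, Reln and Rgs5 are among the 5 genes called under every alternative, and their RefSeq promoter windows (GRCm38.p6) are printed for comparison with that of Lamb1. The Reln window covers chr5:22344656-22344955 on the minus strand and has GGGCGG in capitals, 6 times. The Rgs5 window covers chr1:169655251-169655550 on the plus strand and has the complement of CCAAT in capitals, 1 time.
Reln: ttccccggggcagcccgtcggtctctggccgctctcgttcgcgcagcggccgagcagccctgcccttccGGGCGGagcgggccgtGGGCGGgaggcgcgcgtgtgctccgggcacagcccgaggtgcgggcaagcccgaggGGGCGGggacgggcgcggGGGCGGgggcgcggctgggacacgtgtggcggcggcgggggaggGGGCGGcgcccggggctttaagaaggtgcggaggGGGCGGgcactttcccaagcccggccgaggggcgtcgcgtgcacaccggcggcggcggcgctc
Rgs5: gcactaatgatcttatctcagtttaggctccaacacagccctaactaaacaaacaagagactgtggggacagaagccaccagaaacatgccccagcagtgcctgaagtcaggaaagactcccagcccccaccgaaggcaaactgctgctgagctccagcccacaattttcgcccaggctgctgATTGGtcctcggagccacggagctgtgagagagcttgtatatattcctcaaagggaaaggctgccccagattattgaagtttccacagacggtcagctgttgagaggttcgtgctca
The windows of Reln and Rgs5 have none of the searched motifs in common. That of Reln was 80.7% G or C and that of Rgs5 52.3%, against 63.7% for Lamb1. Windows were found for 24 of the 38 members, 27 windows in all, and motifs were sought on both strands. GGGCGG occurred in 16 of the 27 windows, of 15 genes, and in 35.7% of all windows. CCAAT occurred in 10 of the 27, of 10 genes, and in 37.4% of all. TATAAA occurred in 3 of the 27 (Col3a1, Ecm1 and Postn) and in 13.6% of all. The CArG box, the motif of serum response factor, occurred in 0 member windows and in 1.63% of all windows. A match is a description of the letters and not of binding.

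Lrat, the enzyme that esterifies retinol for storage in stellate cells, had 6.31, 12.02, 15.2 and 21.8 CPM in shNC and 5.63, 4.70, 7.05 and 11.9 CPM in shTbl1xr1. It had the smallest p of this group over all 8 libraries (-0.88, SE 0.40, edgeR adjusted p = 0.426) and the shallow pair lay below all other libraries. Des, the intermediate filament desmin, had 5.49, 5.85, 11.8 and 6.10 CPM in shNC and 7.39, 5.80, 9.28 and 5.03 CPM in shTbl1xr1. Hand2, a transcription factor of stellate cells, had 4.20, 4.77, 5.51 and 7.12 CPM in shNC and 7.51, 4.42, 5.31 and 4.54 CPM in shTbl1xr1. Des and Hand2 overlapped shNC in both pairs, with log2 fold changes of -0.15 (SE 0.39) and 0.15 (SE 0.29) in the shallow pair.

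The contractile genes Acta2 and Tagln, which mark activated stellate cells and smooth muscle, varied most within shNC after Thbs1. Acta2 had 11.8, 2.29, 21.8 and 9.64 CPM in shNC and 7.89, 4.28, 24.1 and 7.19 CPM in shTbl1xr1. Tagln had 27.7, 8.49, 60.3 and 22.4 CPM in shNC and 28.8, 11.6, 34.3 and 17.2 CPM in shTbl1xr1. For both genes replicate 3 was highest and replicate 2 lowest in each group, and edgeR called neither in any comparison (shallow pair -0.89, SE 0.91, and -0.55, SE 0.76). In all, 2 of 7 genes of this group fell in the shallow pair (background 19.1% of genes), and the same 2 with the length trend removed (background 10.4%). With so few genes, these counts are not a statement about the role.

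Other markers of stellate cells did not follow the members as a body. Of 11 tested, 1 was lower in the shallow pair (background 19.1% of genes), Hgf, named after its values were seen. With the length trend removed Colec11 was lower too (background 10.4%). Hgf, the hepatocyte growth factor that stellate cells supply in regeneration, had 8.04, 11.4, 16.2 and 12.1 CPM in shNC and 1.63, 1.38, 10.5 and 6.99 CPM in shTbl1xr1, a log2 fold change of -2.98 (SE 0.38, edgeR adjusted p = 0.000661; -2.73 with the length trend removed). Over all 8 libraries 0 of the 11 were called, the smallest p being that of Colec11 (-0.54, SE 0.19, edgeR adjusted p = 0.390), and Gfap was near 0 in every library and not tested.

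Markers of the other liver cells also differed in the shallow pair. Sinusoidal endothelial markers were lower for 6 of 8, Kupffer and macrophage markers for 7 of 8 and lymphocyte markers for 2 of 3 tested (background 19.1% of genes). Hepatocyte markers were higher for 5 of 8 (background 20.4%), while Alb, Cps1 and Tat were not called, with log2 fold changes of 0.00, -0.47 and -0.57. With the length trend removed the counts were 6, 7, 1 (Ptprc) and, for hepatocytes, 2 (Apoa1 and Hgd). The background was then 10.4% lower and 14.2% higher. The summed endothelial level was 145 and 126 CPM in the shallow pair against 224 to 268 CPM in the other 6 libraries, and the summed Kupffer and macrophage level 232 and 250.4 CPM against 468 to 768 CPM. Cholangiocyte (6 tested), portal fibroblast (5 tested) and mural and smooth muscle markers (2 tested) had 0 calls in either direction there. No list had a call over all 8 libraries or in the deeper pair, and no listed gene was at 0 in every library. The part of these cells in the members' values was not tested.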

How the data were processed

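RNA of 8 liver libraries was measured by RNA-seq, 4 per group. The authors deposited 1 table per library, with an expected count per gene, an estimate of fragments that need not be whole, and TPM values, which scale those counts by length and total, per the file headers. STAR, RSEM and DESeq2 1.30.1 are the tools listed, and mm10 the build, per the submitters' processing notes, with no strand setting given in the sources used here. Gene symbols and positions are those of GENCODE mouse release 21, in which 55141 of 55401 identifiers had a symbol with the version removed. RSEM shares fragments among similar genes by likelihood.

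Expected counts were rounded, genes kept by filterByExpr and libraries TMM-scaled. The test was the robust quasi-likelihood F test of edgeR 4.0.16 (R 4.3.3), with all 8 libraries as 2 groups and, for the pairs, as 3 groups sharing 1 estimate of spread, Benjamini-Hochberg adjustment over all genes tested and a threshold of 0.05. One CPM was worth 27.9 to 30.6 counts in shNC, 7.99 and 7.24 in shTbl1xr1 1 and 2, and 31.1 and 40.3 in shTbl1xr1 3 and 4. Log2 levels used a prior count of 2. Fits were tested on simulated counts. DESeq2 1.42.0 and limma 3.58.1 were alternatives.

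All 38 members are named, by role, and of each other list the members called over all 8 libraries or else the one with the smallest p. Other names were chosen after their values were seen. The result of 1 listed gene that is no member is not reported here. The members, the split into pairs and the other lists were chosen with earlier results of these data known.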

Additional observations from a re-analysis of the deposited data

Results flagged for a closer look

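A library stood apart from the other 3 of its group for 4 genes, in 5 of the 76 gene and group combinations examined, where Dixon's criterion flags about 1 in 20 by chance. All 5 are replicate 3. Thbs1 was at 17.3 CPM in shNC 3, with the next library at 2.30 CPM, and at 16.3 CPM in shTbl1xr1 3, with the next at 2.40 CPM. Col6a2 was at 20.4 CPM in shTbl1xr1 3 (next 6.59 CPM) and Loxl1 at 8.34 CPM in the same library (next 2.26 CPM). Des was at 11.8 CPM in shNC 3 (next 6.10 CPM).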

How the results depend on the processing

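Over all 8 libraries 0 members were called under each alternative run, and the members' median ranged from -0.72 to 0.06 with 1 library left out. In the shallow pair against shNC, scaling by library size alone gave 31 members called and a median of -1.89, and removing the length trend 7 and -0.84. That scaling moved the median of all genes there from -0.08 to -0.76, and the genes called in either direction from 5484 to 8167. Removing the trend left 3413 of all genes called. With 1 library left out the count ranged from 8 to 20. In the deeper pair the count ranged from 0 to 1 and the median from -0.24 to 0.44 with 1 library left out. Between the pairs, library size alone gave 32 members and a median of -2.02 (all genes -0.79), and removing the length trend 4 and -0.78. Leaving out 1 shNC library gave 17 to 28 members. Of all genes, 5155 were called with TMM scaling, 7783 with library size alone and 2059 with the trend removed.

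Directions turned for Col15a1 (0.94), Lamc1 (0.70), Fn1 (0.069) and Ecm1 (0.14) in the shallow pair with the effective length offset, and for Fn1 (0.025), Col18a1 (0.19), Col15a1 (0.19) and Des (0.098) with the length trend removed. Between the pairs they turned for Lamc1 (0.58), Fn1 (0.024) and Col15a1 (0.29) with that offset, and for Col18a1 (0.056), Fn1 (0.041) and Des (0.16) with the trend removed. The cause was not tested.

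Replicate numbers 1 to 4 occur in both groups, and same-numbered libraries deviated together with correlations of 0.38, -0.07, 0.31 and 0.12, and 2 of 4 libraries correlated best with their own number. Since not every correlation exceeded 0.1 and the labels do not say what a number marks, the numbers were not used to pair libraries. With the replicate block the shallow pair had 16 members called and a median of -0.83, the deeper pair 0 and -0.05, and the difference between the pairs 7 members (6 lower, 1 higher) and -0.73. Of all genes 3420, 6 and 1036 were called in these 3 comparisons. Depth limits Thbs1 and Lox, with 3 to 5 counts in the shallow libraries.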
